A study of Homo sapiens with 9 samples.

Results

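The genes described here are 35 genes of the contractile actin cytoskeleton and of the transcription that follows it. They were chosen by symbol, and all 35 were found among the 36601 genes of both deposited tables. By role they are 4 actins, 5 transgelins and calponins, 5 tropomyosins and caldesmon, 6 myosin II subunits, 4 actin crosslinkers, 5 adhesion and LIM proteins, the severing factor DSTN, 4 target genes of YAP and the transcription factor SRF.

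The study grew extra-embryoids (hEEs), aggregates of ESI017 cells in which an inner embryonic compartment forms within an outer hypoblast-like layer. ESI017 is an established human embryonic stem cell line, here wild type, labelled as untreated, and cultured in expanded potential medium before it was aggregated in microwells. Per the methods, the expanded potential medium held an inhibitor of WNT and one of ROCK, the kinase that activates non-muscle myosin. The ROCK inhibitor was also in the medium on the first day of aggregation. Aggregates that showed both compartments were collected at D4 and at D6, dissociated, and profiled by droplet sequencing of transcript 3′ ends with unique molecular identifiers (UMIs). Each day is 1 library of aggregates pooled from several wells and cultures. No test between days, gates or classes of cells was therefore possible, and the 95% intervals in brackets cover counting error and nothing else.

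Cells were grouped by 3 genes that are not among the 35. The embryonic gate took cells with at least 5 UMIs of POU5F1, at least 1 of SOX2 and at most 2 of FN1, and held 3716 of 9151 kept cells at D4 and 5054 of 10097 at D6. The hypoblast gate took cells with at least 3 UMIs of FN1, no SOX2 and at most 5 of POU5F1, and held 4061 and 3567 cells. Markers that the gates did not use were read to check these names. GATA6, an endoderm regulator, was at 1.7 and 121 counts per 1000000 UMIs (CPM) in the embryonic and hypoblast gates at D4, and UTF1, a pluripotency gene, at 67.7 and 1.13. All 6 hypoblast markers were higher by 1.5-fold or more in the hypoblast gate on both days, and 5 of 6 embryonic markers were lower, the exception being TDGF1, at 186 and 228 CPM at D4. All 5 primitive streak and mesoderm markers, EOMES, MIXL1, HAND1, MESP1 and TBXT, were also higher in the hypoblast gate on both days, with sums of 161 against 9.01 CPM at D4 and 279 against 10.8 at D6, and their part in the differences between the gates was not tested. Cells in neither gate, 1374 at D4 and 1476 at D6, were not compared. The libraries held 151712246 and 150320228 UMIs, kept cells had medians of 12717 and 12960 UMIs, and 40 cell barcodes occurred in both libraries, 27 of them among kept cells.

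Actin filaments and bundles of non-muscle myosin II generate tension in a cell, and tropomyosins, caldesmon, calponins and transgelins decorate the filaments and tune that contraction. As monomeric actin is used up, its partner MRTF is released to the nucleus and acts with SRF on CArG boxes, which lie near the starts of many cytoskeletal genes. Tension and spreading also keep YAP and its relative TAZ in the nucleus, where they act with TEAD factors, and CCN1, CCN2, ANKRD1 and AMOTL2 are widely used as readouts. In the early embryo, contractility and YAP are known for their parts in separating and shaping the first lineages.

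The sequences around CArG boxes and TEAD elements are shown because these are the letters that SRF and TEAD factors read. RefSeq windows of GRCh38.p14, which run from 250 bases before to 50 bases after a transcription start, were matched by symbol for 31 of the 35 genes, and ACTB, TAGLN, MYL9 and CCN1 had no entry. A CArG box, whose pattern reads the same on both strands, was found in 454 of 35116 windows (1.29%). Among the 55 windows of the members, 8 held one, each of a different gene: ACTG1, ACTG2, CNN2, TPM4, ACTN1, FLNA, TGFB1I1 and SRF. Over genes in place of windows, this is 8 of 31 members and 438 of 27305 genes (1.60%). Parts of 7 of the 8 windows are given below, 5′ to 3′ in the sense of the gene, with the CArG boxes in capitals. They lie at chr6:43171219-43171268 (+ strand) for SRF, chr17:81512864-81512913 (- strand) for ACTG1, chr2:73892878-73892964 (+ strand) for ACTG2, chr19:1026499-1026548 (+ strand) for CNN2, chr19:16067345-16067394 (+ strand) for TPM4, chrX:154374699-154374748 (- strand) for FLNA and chr16:31473134-31473183 (+ strand) for TGFB1I1.
SRF: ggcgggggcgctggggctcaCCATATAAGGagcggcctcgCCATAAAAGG
ACTG1: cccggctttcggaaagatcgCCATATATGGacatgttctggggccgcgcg
ACTG2: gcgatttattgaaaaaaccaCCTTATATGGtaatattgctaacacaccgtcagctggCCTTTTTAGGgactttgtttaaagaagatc
CNN2: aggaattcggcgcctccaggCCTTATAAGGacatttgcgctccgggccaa
TPM4: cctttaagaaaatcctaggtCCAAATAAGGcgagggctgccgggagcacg
FLNA: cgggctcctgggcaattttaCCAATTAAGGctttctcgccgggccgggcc
TGFB1I1: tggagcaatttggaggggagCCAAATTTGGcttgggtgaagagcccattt
SRF itself and ACTG2 hold a pair of boxes each. The letters inside the box differ between the genes.

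The TEAD element was searched as GGAATG and, for the other strand, CATTCC. It is short, and it was found in 4928 of all 35116 windows (14.0%), in 14 of the members' 55 windows, and in the windows of 13 of 31 members and of 16.7% of all genes. CCN2 held 3 and ANKRD1 held 2, and these are given below with those of AMOTL2, VCL and FLNC, the elements in capitals. They lie at chr6:131951442-131951561 (- strand) for CCN2, chr10:90921190-90921327 (- strand) for ANKRD1, chr3:134374491-134374536 (- strand) for AMOTL2, chr10:73997925-73997970 (+ strand) for VCL and chr7:128830283-128830328 (+ strand) for FLNC.
CCN2: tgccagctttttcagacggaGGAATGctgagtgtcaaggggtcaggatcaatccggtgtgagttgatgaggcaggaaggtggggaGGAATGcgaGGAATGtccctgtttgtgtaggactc
ANKRD1: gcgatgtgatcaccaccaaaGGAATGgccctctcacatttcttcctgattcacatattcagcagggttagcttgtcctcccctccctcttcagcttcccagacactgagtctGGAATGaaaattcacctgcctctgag
AMOTL2: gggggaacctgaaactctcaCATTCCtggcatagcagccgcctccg
VCL: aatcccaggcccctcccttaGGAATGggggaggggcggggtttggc
FLNC: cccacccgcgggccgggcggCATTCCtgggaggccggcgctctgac
ACTN1 was the member that held both a CArG box and a TEAD element, and in its window they share no letters. A match is a description of the letters in the window and was not tested for binding.

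The 35 genes ran from 0.334 CPM for ACTA2 in embryonic cells of D6 to 3618 for ACTB in hypoblast cells of D6. Because each molecule is counted once at its 3′ end, CPM can be compared between genes without a correction for length. ACTB and ACTG1, the cytoplasmic actins of every cell, led the list. ACTB had 3442 CPM on D4 and 2559 on D6 in the embryonic gate, and at 3296 and 3618 in the hypoblast gate. ACTG1 was at 2335 and 1799 CPM in the embryonic gate and at 3111 and 3449.6 in the hypoblast gate, with the hypoblast gate above on both days. The smooth muscle actins stood at the other end. ACTA2 was between 0.334 and 0.899 CPM in the 4 groups and ACTG2 between 0.588 and 3.79. Reads of these near-identical actins, and of MYL12A and MYL12B, TPM3, MYL6, TAGLN2 and others with pseudogenes, may be lost or split in counting, and their levels are uncertain to that extent.

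**Figure D1:**
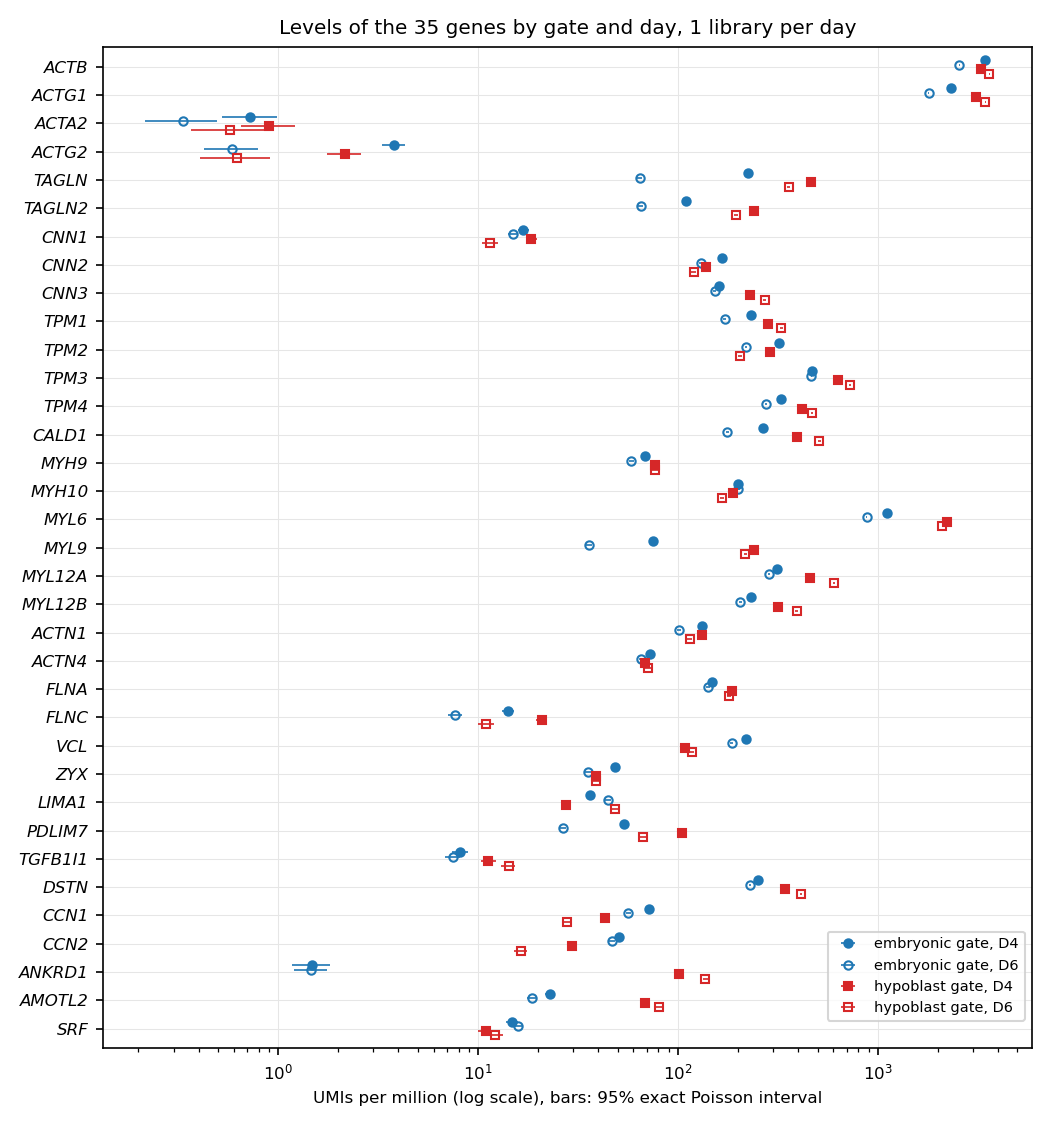
CPM (log axis) of each of the 35 genes in the embryonic gate (blue circles) and the hypoblast gate (red squares) at D4 (filled) and D6 (open), in 1 library per day, with 95% exact Poisson intervals. The open blue circles lie furthest left for most contractile genes, ANKRD1 is at 1.47 CPM in the embryonic and 101 in the hypoblast gate at D4, and ACTA2 is under 1 CPM in each group.

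As a sum, the contractile genes were at a higher level in the hypoblast gate, and more so at D6. Summed over the 35 genes, they made up 11223 CPM in the embryonic and 14310.1 in the hypoblast gate at D4, a log2 ratio of 0.35 [0.35, 0.36], and 8750.3 and 15179 CPM at D6, a log2 ratio of 0.79 [0.79, 0.80]. Abundant genes weigh most in these sums. The 6 myosin II genes, MYL6 among them, made up 1999 CPM in the embryonic and 3497 in the hypoblast gate at D4. Without TAGLN, ACTB and ACTG1, the remaining 32 genes had log2 ratios of 0.51 [0.50, 0.52] at D4 and 0.84 [0.83, 0.85] at D6. At D4, 7 of 35 genes were higher by 1.5-fold or more in the hypoblast gate and 4 were lower. The share of members that were higher, 20%, was close to the 22% of all 17924 genes compared. The share that were lower, 11.4%, was under the 24.1% of all genes. The median log2 ratio was 0.32 over the members and -0.04 over all genes. At D6, 18 of 35 were higher and 3 lower, where 21.4% of 17928 genes were higher and 31.3% lower, and the medians were 0.64 and -0.16. The outer layer needed a longer dissociation than the inner cells according to the labels. Of 14 genes that respond to dissociation, 5 were higher and 2 lower in the hypoblast gate at D4, and 5 were higher and 5 lower at D6, and their part in these values was not tested.

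MYL9, TAGLN and TAGLN2 had the highest ratios among the filament and myosin genes on both days. TAGLN (ENSG00000149591), transgelin, which crosslinks actin and marks contractile cells, had 224 CPM on D4 and 64.5 on D6 in the embryonic gate and was at 462 and 359 in the hypoblast gate, log2 ratios of 1.04 [1.01, 1.08] and 2.48 [2.43, 2.52]. MYL9, the regulatory light chain most abundant in contractile cells, was at 75.4 and 35.7 CPM in the embryonic and at 239 and 218 in the hypoblast gate, which is 3.17-fold and 6.09-fold higher. Its close relatives differed less: MYL12A had log2 ratios of 0.54 at D4 and 1.08 at D6, and MYL12B of 0.45 and 0.94. The partners of these chains did not behave alike. MYL6, the essential light chain, was at 1109.9 and 881 CPM in the embryonic and 2218 and 2102 in the hypoblast gate. The heavy chains that it binds were within 1.5-fold on both days, with MYH9 at 0.17 and 0.40 and MYH10 at -0.08 and -0.27 on the log2 scale.

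Among the other proteins that coat filaments, TAGLN2 was at 109.8 and 65.4 CPM in the embryonic and at 242 and 195 in the hypoblast gate, while the calponins were mixed. CNN3 was higher in the hypoblast gate by 0.52 at D4 and 0.83 at D6 on the log2 scale. CNN1, the smooth muscle calponin, was between 11.5 and 18.5 CPM everywhere, and CNN2 between 119.9 and 166. CALD1, caldesmon, which restrains myosin on the filament, was at 266 and 177 CPM in the embryonic gate and at 393 and 511 in the hypoblast gate, and its log2 ratio went from 0.56 at D4 to 1.53 at D6. TPM1, TPM3 and TPM4 passed 1.5-fold at D6, at 0.93, 0.64 and 0.77. TPM2 was the tropomyosin that did not lean to the hypoblast gate, at -0.14 [-0.17, -0.11] and -0.11 [-0.14, -0.07].

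Crosslinkers and adhesion proteins were mixed between the gates. As sums, the 4 crosslinkers had log2 ratios of 0.15 at D4 and 0.25 at D6. The 5 adhesion and LIM genes were at -0.34 and -0.07, and the 4 actins at 0.15 and 0.70. ACTN1 and ACTN4, the alpha-actinins that bundle filaments, had log2 ratios between -0.08 and 0.17 over both days, and FLNA, a filamin that ties filaments into a network, of 0.32 and 0.36. VCL, vinculin, which links filaments to adhesion sites under load, went the other way: it was at 221 and 186 CPM in the embryonic and 108 and 117 in the hypoblast gate, log2 ratios of -1.03 [-1.07, -0.98] and -0.66 [-0.71, -0.62]. PDLIM7, a LIM protein of filament bundles, was higher in the hypoblast gate at 53.6 against 105 CPM at D4 and 26.5 against 67.2 at D6. ZYX (zyxin), LIMA1 and TGFB1I1, the other LIM proteins, were within 1.5-fold on both days except TGFB1I1 at D6, with 7.47 and 14.2 CPM. DSTN, destrin, which severs filaments, had log2 ratios of 0.45 and 0.84.

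**Figure D2:**
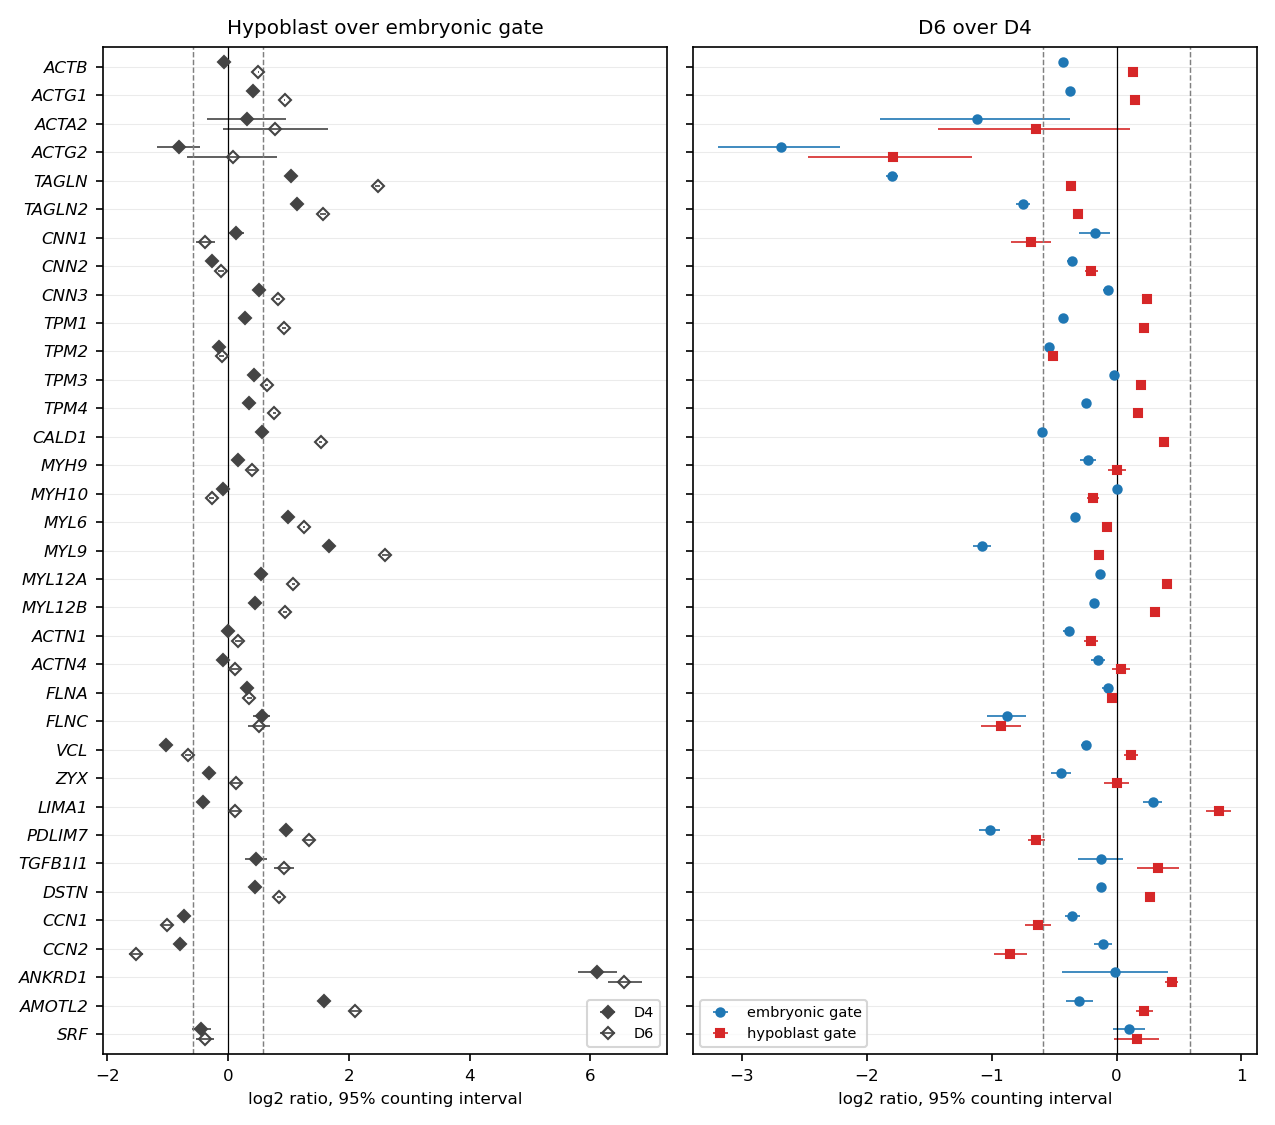
Log2 ratio of each of the 35 genes between the hypoblast and the embryonic gate at D4 and D6 (left) and between D6 and D4 in each gate (right), with 95% counting intervals and dashed lines at 1.5-fold. On the left VCL, CCN1 and CCN2 lie left of the lower line on both days while ANKRD1 stands at 6.11 and 6.56, and on the right the embryonic gate lies left of the hypoblast gate for most genes.

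The 4 YAP target genes split between the lineages. CCN1 and CCN2, secreted matricellular proteins, were higher in the embryonic gate. CCN1 was at 72.1 and 56.4 CPM in the embryonic and 43.4 and 28.0 in the hypoblast gate, log2 ratios of -0.73 [-0.81, -0.66] and -1.01 [-1.11, -0.92]. CCN2 was at 50.7 and 47.0 CPM in the embryonic and 29.4 and 16.3 in the hypoblast gate, at -0.79 [-0.88, -0.69] and -1.52 [-1.65, -1.41]. ANKRD1, an ankyrin repeat protein of muscle and stretched cells, had the opposite placement. Its levels were 1.47 and 1.46 CPM in the embryonic gate and 101 and 137 in the hypoblast gate, log2 ratios of 6.11 [5.80, 6.43] and 6.56 [6.29, 6.85]. AMOTL2, an angiomotin that holds YAP in the cytoplasm and is itself induced by it, was at 22.8 and 18.6 CPM in the embryonic and 68.8 and 80.3 in the hypoblast gate. Of the windows printed above, those of CCN2 and ANKRD1 hold the most TEAD elements, and these genes lie on opposite sides of the comparison. APOA1, an apolipoprotein and hypoblast marker, was at 20.8 and 1621 CPM in the embryonic and hypoblast gates at D4 and at 89.6 and 11926 at D6, and how much of a level as low as that of ANKRD1 in the embryonic gate is free RNA was not tested.

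Other targets of YAP and TEAD, from a list of 20 genes that are not members, were mostly higher in the hypoblast gate. At D4, 12 of 18 compared were higher and 2 lower, and at D6, 13 of 19 were higher and 4 lower. Of all genes compared, 22% were higher and 24.1% lower at D4, and 21.4% and 31.3% at D6. The share of all genes called on both days was not counted. On both days 11 were higher, of which GADD45A, PTPN14, AMOTL1, MYOF and F3 had the highest levels. MYOF, a membrane repair protein, was at 2.35 CPM in the embryonic and 31.5 in the hypoblast gate at D4, and at 1.87 and 73.9 at D6. AXL, a receptor tyrosine kinase, and DOCK5, a Rac activator, were lower in it on both days, AXL at 3.14 against 14.4 CPM at D4. Of 17 Hippo pathway genes, 4 were higher and 3 lower in the hypoblast gate at D4, and 6 were higher and 2 lower at D6. Their median log2 ratios were 0.03 and 0.11, and the shares of all genes are those just given. YAP1, TEAD1, AMOT and STK3 were higher in the hypoblast gate on both days and SAV1 and WWC1 lower. YAP1 itself was at 45.8 and 105 CPM at D4 and 44.7 and 100.4 at D6, and its paralog WWTR1, which encodes TAZ, at 13.7 and 12.4 and at 15.9 and 13.0.

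SRF and 5 of its 6 cofactor genes were within 1.5-fold between the lineages. SRF was at 14.8 and 15.8 CPM in the embryonic and 10.9 and 12.2 in the hypoblast gate, log2 ratios of -0.44 [-0.60, -0.28] and -0.38 [-0.53, -0.23]. MYOCD, the cofactor of smooth and cardiac muscle, was the exception, at 0.588 against 4.27 CPM at D4 and 0.441 against 1.46 at D6. Of 22 genes of focal adhesions and LIM proteins, 10 were higher and 4 lower in hypoblast cells at D4, where 22% of all genes were higher and 24.1% lower. At D6, 14 of 21 compared were higher and 3 lower, where 21.4% and 31.3% of all genes were. On both days 10 were higher, led by FERMT2, TLN1, TLN2, ILK and LIMS1, and CSRP2, FHL2 and FHL1 were lower. FERMT2, kindlin-2, which activates integrins, was at 82.3 and 269 CPM in the embryonic and hypoblast gates at D4, the opposite order to that of VCL.

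From D4 to D6 the members were lower in the embryonic gate and near level in the hypoblast gate. The sum of the 35 genes changed by -0.36 [-0.36, -0.35] in the embryonic and 0.09 [0.08, 0.09] in the hypoblast gate on the log2 scale. In the embryonic gate 8 of 35 genes were lower by 1.5-fold or more at D6 and 0 higher, where 3.54% of 18402 genes were lower and 10.8% higher. The members' median was -0.30 and that of all genes 0.08. The 8 genes were ACTA2, ACTG2, TAGLN, TAGLN2, CALD1, MYL9, FLNC and PDLIM7. TAGLN had a log2 ratio of -1.80 [-1.84, -1.75], MYL9 of -1.08 [-1.15, -1.01], PDLIM7 of -1.02 [-1.10, -0.93] and CALD1 of -0.59 [-0.63, -0.56]. In the hypoblast gate 7 of 35 were lower and 1 higher, where 10.1% of 17216 genes were lower and 10.6% higher, and both medians were near 0. There the genes were CNN1, FLNC, PDLIM7, CCN1, CCN2 and the 2 smooth muscle actins, and LIMA1, an inhibitor of filament turnover, was the one that was higher, at 0.82 [0.72, 0.92]. The calls of ACTA2 rest on few UMIs, 42 at D4 and 25 at D6 in the embryonic gate and 43 and 24 in the hypoblast gate. CCN2 went from 29.4 CPM to 16.3 in this gate, and TAGLN changed by -0.36. Between the days the median mitochondrial share of embryonic cells went from 3.82% to 1.93%, and markers of the anterior visceral endoderm went from 173 to 36.9 CPM in that gate, with 3 of 5 lower, and their part was not tested. The comparisons of days and of gates use the same 4 groups of cells. With 1 library per day, the day and the library cannot be told apart.

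In cells without a UMI of TAGLN, the difference between the days was smaller in the embryonic gate but remained. The median per-cell sum of the 34 members other than TAGLN was 9681 CPM at D4 and 8305 at D6 in them. Over all embryonic cells it was 10327.5 and 8404. These cells were chosen after the values were seen, and they numbered 1334 at D4 and 3583 at D6. In them 3 of 32 genes compared were lower by 1.5-fold or more, and these were MYL9, FLNC and PDLIM7, where 2.08% of 15702 genes were lower. Of the 8 genes lower over all cells of the gate, TAGLN defines these cells, and ACTA2 and ACTG2 were under the floor, with ACTG2 at -1.88 [-2.95, -0.84]. The log2 ratio of MYL9 was -0.67 [-0.80, -0.54], that of TAGLN2 -0.20 [-0.29, -0.10] and that of CALD1 -0.09 [-0.15, -0.03]. The abundant actins were at -0.31 [-0.33, -0.30] for ACTB and -0.32 [-0.34, -0.30] for ACTG1. In the cells with 8 or more UMIs of TAGLN, MYL9 was higher at D6, at 0.37 [0.22, 0.53], and CALD1 was at -0.10 [-0.19, -0.01]. Those of D6 numbered 115, and 10 of them held 107 of the 434 UMIs of MYL9. They had more hypoblast markers and doublets than the other embryonic cells of D6, as given below, and the part of these was not tested. The same cells without TAGLN, set between the gates, gave 10 higher and 2 lower of 34 genes compared at D4, where 20.8% of all genes were higher and 21.2% lower. At D6 they gave 16 higher and 4 lower of 32, where 20.9% of all genes were higher and 27.8% lower. Between the days, CNN1 was at -0.68 [-0.85, -0.52] over all cells of the hypoblast gate. In those without TAGLN it was at 0.28 [-0.12, 0.68], an interval that spans 0. It was at -0.41 [-0.63, -0.19] in hypoblast cells with under 8 UMIs of TAGLN and -0.51 [-0.76, -0.27] in those with 8 or more.

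Cells rich in TAGLN were found in both lineages and were fewer at D6. In the embryonic gate 465 of 3716 cells had 8 or more UMIs of TAGLN at D4 (12.5% [11.5, 13.6], exact binomial) and 115 of 5054 at D6 (2.28% [1.88, 2.73]). In the hypoblast gate 852 of 4061 cells had them at D4 (21.0% [19.7, 22.3]) and 453 of 3567 at D6 (12.7% [11.6, 13.8]). Such cells were deeper, with medians of 17911 and 17129 UMIs in the embryonic and 12586.5 and 13313 in the hypoblast gate, against 14703, 14189, 10658 and 10641 in the cells below the threshold. When TAGLN was cut at 600 CPM of the cell in place of 8 UMIs, which does not grow with depth, the class held 329 and 95 embryonic cells and 895 and 466 hypoblast cells. In the embryonic gate the 115 cells of D6 carried 56.5% of the TAGLN UMIs and 2.63% of all UMIs of the gate. At D4 the 465 cells carried 63.9% and 14.8%.

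Cells just inside and just outside the threshold of TAGLN, with 8 or 9 and with 6 or 7 UMIs, were close in the other members. At D4 the median per-cell sum of the 34 other genes was 11691 CPM in the 156 embryonic cells just below and 12172 in the 102 just above, and 13700.2 and 14854 in the 258 and 155 hypoblast cells. At D6 it was 11029 and 11809 in 30 and 19 embryonic cells and 16605 and 17515 in 149 and 91 hypoblast cells. Over the full range of TAGLN the median went from 9681 CPM in embryonic cells without a UMI of it to 17440 in those with 16 or more at D4. TAGLN set these classes, so its own values in them are a description.

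Cells rich in TAGLN carried more of the other contractile genes in both lineages. The 34 other genes summed to 14891 CPM in the TAGLN-rich and 10325 in the remaining embryonic cells of D4, a log2 ratio of 0.53 [0.52, 0.54], and to 14856 and 8519 at D6, 0.80 [0.79, 0.82]. In the hypoblast gate the log2 ratios were 0.48 [0.47, 0.49] at D4 and 0.47 [0.46, 0.48] at D6. In the embryonic gate 15 of 33 members compared were higher by 1.5-fold or more at D4 and 0 lower, where 3.88% of 13651 genes were higher and 5.84% lower. At D6, 18 of 31 were higher and 0 lower, where 5.64% of 10596 genes were higher and 6.18% lower. In the hypoblast gate 14 of 34 were higher and 2 lower at D4, with 3.35% and 6.33% of 14210 genes, and 13 of 32 were higher and 0 lower at D6, with 2.07% and 5.87% of 13006 genes. The 2 that were lower were ACTA2 and ACTG2, with 7 and 17 UMIs in the TAGLN-rich cells and intervals that span 0, at -0.73 [-2.15, 0.45] and -0.71 [-1.55, 0.05].

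**Figure D3:**
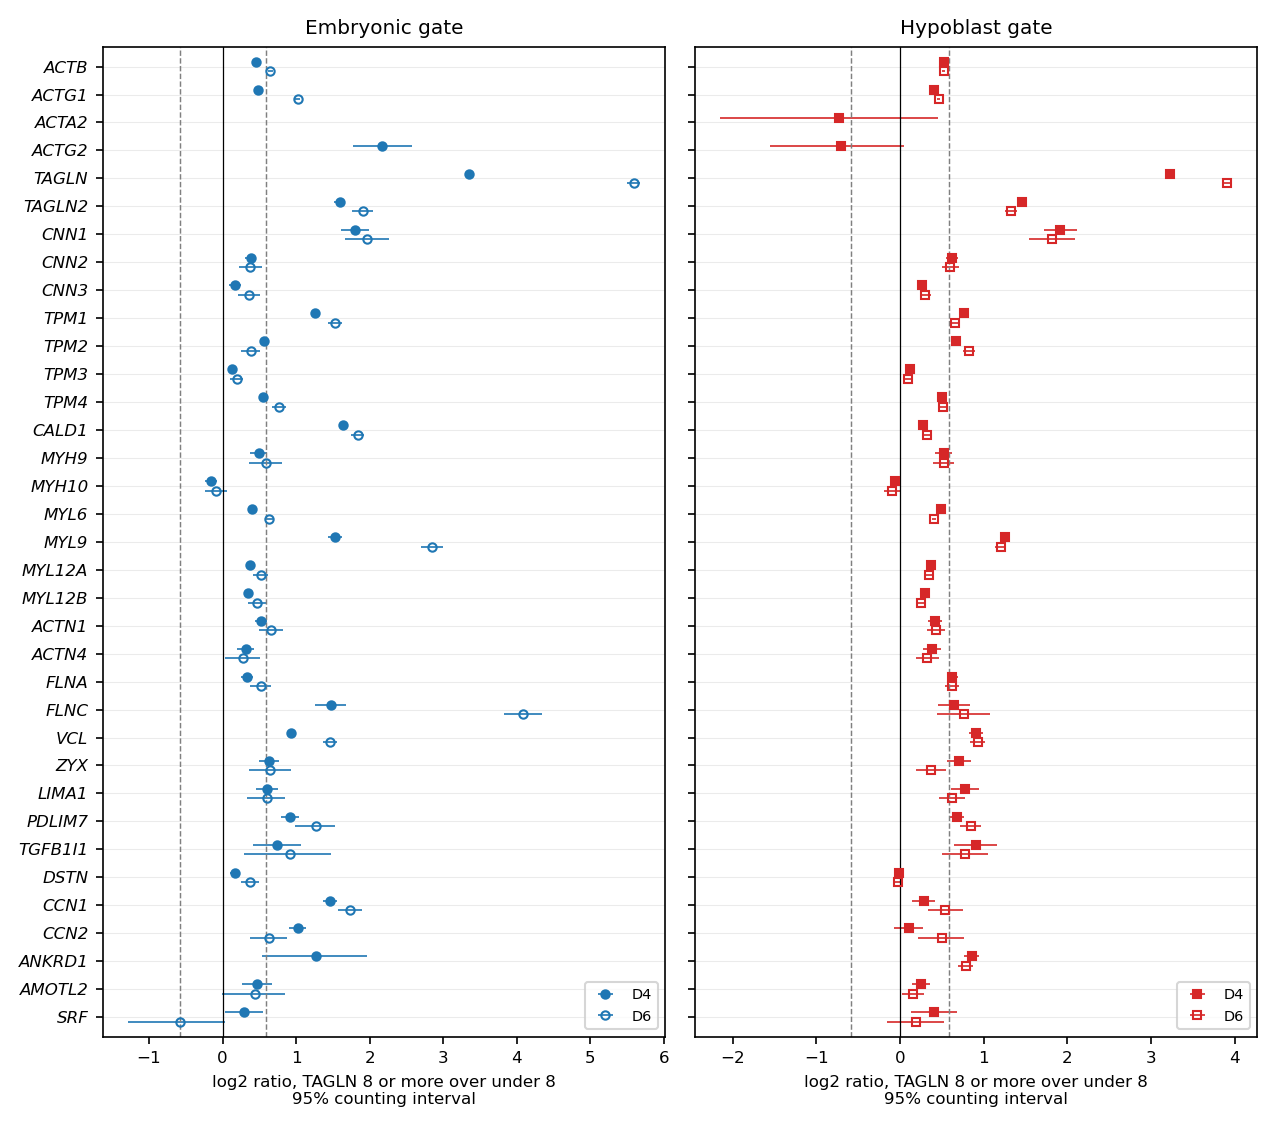
Log2 ratio of each gene between cells with 8 or more UMIs of TAGLN and the other cells of the embryonic gate (left) and the hypoblast gate (right), at D4 (filled) and D6 (open), with 95% counting intervals, dashed lines at 1.5-fold and genes under the floor of 10 expected UMIs left out. MYL9, FLNC, CALD1 and CCN1 lie far right in the embryonic gate, CALD1 and CCN1 stay within the lines in the hypoblast gate, and MYH10 and TPM3 lie near 0 in both.

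A group of 9 genes was higher by 1.5-fold or more in the TAGLN-rich cells of both gates on both days: TAGLN2, CNN1, TPM1, MYL9, FLNC, VCL, LIMA1, PDLIM7 and TGFB1I1. The share of all genes higher in both gates on both days was not counted. Some of these calls rest on few of the 115 TAGLN-rich embryonic cells of D6. There TGFB1I1 had 27 UMIs in 23 cells, and 10 cells held 14 of them. CNN1 had 107 UMIs in 52 cells, and 10 cells held 56 of them. TAGLN2 was at 255 against 84.7 CPM in the embryonic and 465 against 169.5 in the hypoblast gate at D4, and at 228 against 61.0 and 396 against 158 at D6. CNN1, low in every group as a whole, was at 43.0 against 12.4 CPM in embryonic and 41.7 against 11.04 in hypoblast cells at D4, log2 ratios of 1.80 [1.61, 1.99] and 1.92 [1.72, 2.11]. VCL kept its lineage difference inside this class, with 370.3 against 195 CPM in embryonic and 168 against 89.2 in hypoblast cells at D4 and 488 against 178 and 196 against 103 at D6. MYL9 was at 170.4 against 58.9 CPM in embryonic cells of D4, and at 221 against 30.8 at D6, log2 ratios of 1.53 [1.44, 1.62] and 2.84 [2.69, 2.99]. In hypoblast cells it was at 427 against 179 and 417 against 181 CPM. The embryonic TAGLN-rich cells of D6 thus lay above the other hypoblast cells and below the TAGLN-rich ones. TPM1 had log2 ratios of 1.25 and 1.53 in embryonic and 0.76 and 0.65 in hypoblast cells.

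FLNC, the muscle filamin, had a log2 ratio of 1.47 [1.26, 1.69] in embryonic cells of D4 and 4.08 [3.82, 4.34] at D6, where it was at 92.1 against 5.43 CPM. The D6 value rests on few cells: 50 of the 115 had a UMI of FLNC, and 10 of them held 117 of its 181 UMIs. The 115 cells carried 31.4% of all FLNC UMIs of the gate.

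A set of 10 genes met the floor in all 4 comparisons and passed 1.5-fold in none of them: CNN3, TPM3, MYH9, MYH10, MYL12A, MYL12B, ACTN4, DSTN, AMOTL2 and SRF. The share of all genes that passed in none was not counted. In each single comparison at most 5.64% of all genes were higher and at most 6.33% lower, so staying within 1.5-fold was common. MYH10 was at 182 against 203 CPM in embryonic and 184 against 191 in hypoblast cells of D4, with log2 ratios between -0.16 and -0.05 in the 4 comparisons. TPM3 had log2 ratios of 0.09 to 0.19. MYH9, the other heavy chain, was just under the line, at 0.49, 0.58, 0.52 and 0.52. SRF had 21 UMIs in the embryonic TAGLN-rich cells of D6, a log2 ratio of -0.58 [-1.28, 0.04], and was within 1.5-fold in the other comparisons.

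The 8 genes with a CArG box in their window did not move as one. TGFB1I1 was higher by 1.5-fold or more in all 4 comparisons and SRF in none. CNN2 and FLNA passed in hypoblast cells on both days, with log2 ratios of 0.62 and 0.60 and of 0.62 and 0.62, and stayed under it in embryonic cells. ACTG1, ACTN1 and TPM4 passed in embryonic cells of D6, at 1.02, 0.66 and 0.77, and in no other comparison. ACTG2 was higher in the TAGLN-rich embryonic cells of D4. It was at 11.3 against 2.5 CPM in embryonic cells, a log2 ratio of 2.17 [1.77, 2.57], and at 1.45 against 2.38 in hypoblast cells, -0.71 [-1.55, 0.05], an interval that spans 0. At D6 it was under the floor, with 11 UMIs in the TAGLN-rich and 33 in the other embryonic cells (5.59 against 0.453 CPM) and 18 and 8 in hypoblast cells (2.79 against 0.227 CPM), higher in the TAGLN-rich cells of both gates. ACTA2, the other smooth muscle actin, had 11, 3, 7 and 1 UMIs in the TAGLN-rich embryonic cells of D4 and D6 and hypoblast cells of D4 and D6. It was at 1.29 against 0.629 CPM in embryonic cells of D4 and 0.599 against 0.996 in hypoblast cells of D4, and met the floor in the last of these alone.

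The adhesion genes were among those that passed most often. PDLIM7 was at 89.5 against 47.4 CPM in embryonic and 146 against 91.3 in hypoblast cells of D4, and at 61.5 against 25.6 and 107 against 59.8 at D6. ZYX passed in 3 of the 4 comparisons, the exception being hypoblast cells of D6 at 0.38. LIMA1 was near the line throughout, with log2 ratios of 0.61, 0.60, 0.78 and 0.62. Among the tropomyosins TPM2 passed in hypoblast cells on both days, at 0.67 and 0.82, and was at 0.57 and 0.38 in embryonic cells. The cytoplasmic actins and MYL6 passed in embryonic cells of D6 alone of the 4 comparisons, with ACTB at 3959 against 2522 CPM, a log2 ratio of 0.65 [0.62, 0.68], and MYL6 at 1343 against 868, 0.63 [0.57, 0.69].

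CALD1, CCN1 and CCN2 were higher in the TAGLN-rich embryonic cells on both days and within 1.5-fold in those of the hypoblast gate. CALD1 was at 632 against 203 CPM in embryonic cells of D4 and 591 against 165 at D6, log2 ratios of 1.64 [1.59, 1.69] and 1.84 [1.75, 1.92]. In hypoblast cells it was at 451 against 374 and 615 against 492 CPM, at 0.27 [0.22, 0.31] and 0.32 [0.27, 0.37]. The order of the lineages was thus turned for CALD1 at D4: the hypoblast gate was higher over all its cells, and the embryonic cells were higher among the TAGLN-rich. CCN1 was at 158 against 57.3 and 177 against 53.2 CPM in embryonic cells, at 1.46 [1.37, 1.56] and 1.73 [1.57, 1.89], and at 50.1 against 41.2 and 38.1 against 26.1 in hypoblast cells, at 0.28 [0.14, 0.42] and 0.54 [0.33, 0.75]. CCN2 was at 89.3 against 44.1 and 71.7 against 46.3 CPM in embryonic cells. In hypoblast cells it was at 31.1 against 28.9 CPM at D4 and 21.7 against 15.3 at D6. At D6, 10 of the 115 embryonic cells held 183 of the 348 UMIs of CCN1 and 10 held 72 of the 141 of CCN2. The embryonic log2 ratio of CCN2 at D6 was 0.63 [0.38, 0.87], an interval that holds the 1.5-fold line. Whether the gates differ could not be tested with 1 library per day.

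In hypoblast cells ANKRD1 was the YAP target that passed 1.5-fold with TAGLN. CCN1 was higher there too but stayed under that line, as given above. ANKRD1 was at 153 against 84.6 CPM at D4 and 213 against 124 at D6, log2 ratios of 0.85 [0.77, 0.94] and 0.78 [0.70, 0.87]. In embryonic cells it was at 2.93 against 1.22 CPM at D4, from 25 UMIs in the TAGLN-rich cells. At D6 it was under the floor set for comparisons, and 2 of the 115 cells held 41 of its 47 UMIs. AMOTL2 was within 1.5-fold in each comparison. Of the 4 YAP targets, CCN1 and CCN2 thus passed 1.5-fold in the embryonic gate on both days, and ANKRD1 passed in each of the 3 comparisons in which it met the floor.

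**Figure D4:**
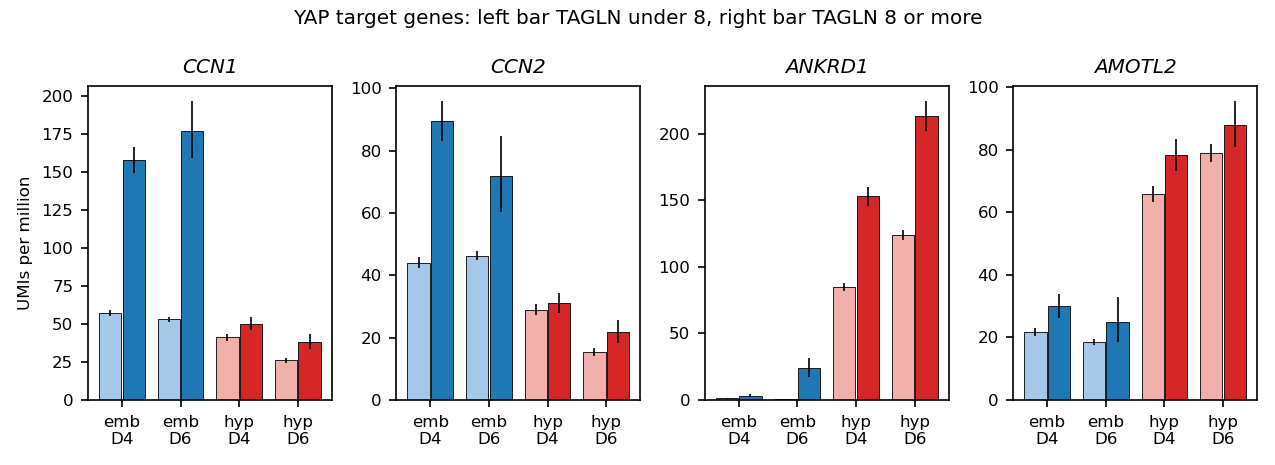
CPM of the 4 YAP target genes in cells with under 8 UMIs of TAGLN (left, pale bars) and 8 or more (right, full bars) of the embryonic (emb, blue) and hypoblast (hyp, red) gates at D4 and D6, with 95% exact Poisson intervals. CCN1 reaches 158 and 177 in the embryonic TAGLN-rich cells, and ANKRD1 reaches 153 and 213 in those of the hypoblast gate.

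Levels were graded over the bins of TAGLN. In embryonic cells of D4, MYL9 was at 39.7 CPM in cells without TAGLN, 98.7 with 4 to 7 UMIs of it, 142 with 8 to 15 and 211 with 16 or more. CALD1 was at 177, 269, 407 and 954 CPM in the same bins, and CCN1 at 52.0, 71.8, 103 and 235. For both genes the step into the top bin was larger than all earlier ones together. In hypoblast cells of D4, TAGLN2 was at 116, 261, 349.6 and 581 CPM, and CALD1 at 356, 407, 424 and 478.

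**Figure D5:**
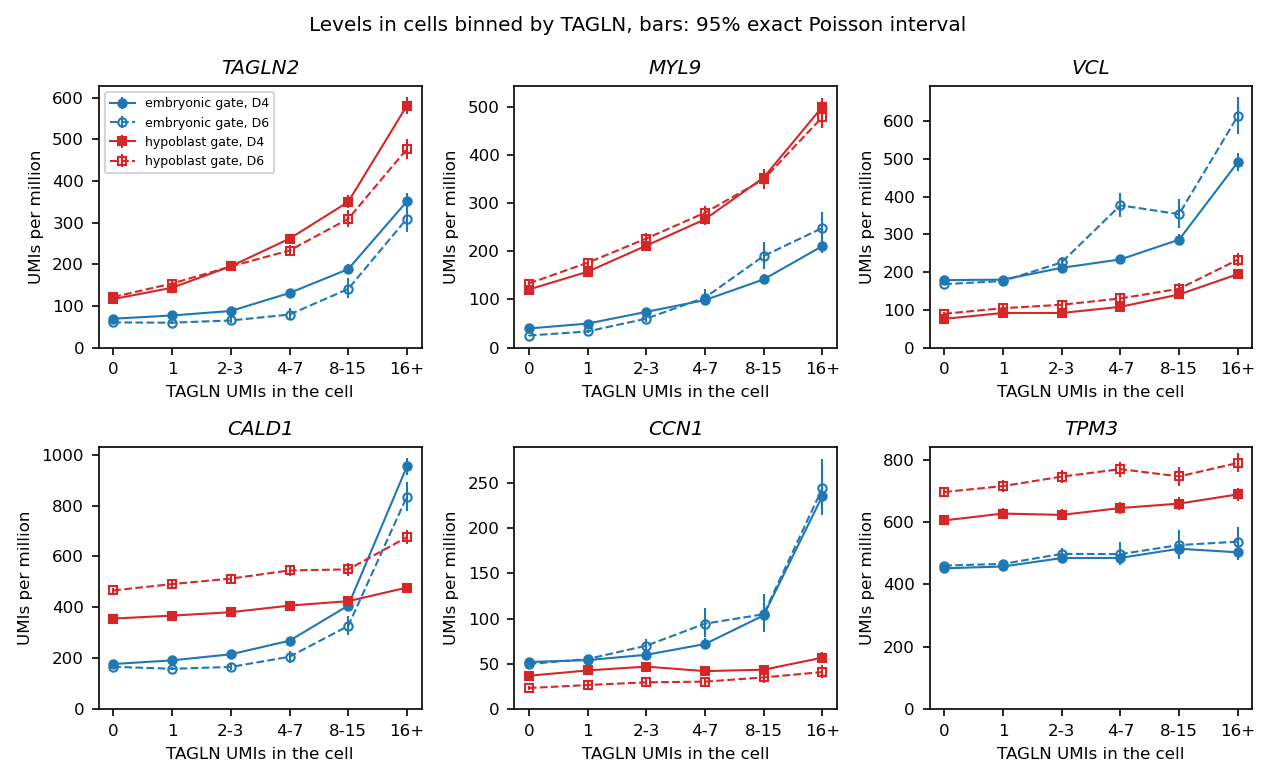
CPM of 6 members in cells binned by their TAGLN UMIs, in the embryonic (blue circles) and hypoblast (red squares) gates at D4 (filled, full line) and D6 (open, dashed line), with 95% exact Poisson intervals. MYL9 is higher in each bin than in the one before it in both gates, CALD1 reaches 954 and CCN1 235 in the top bin of the embryonic gate at D4, and TPM3 stays between 451 and 789.

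The leading genes outside the list that moved with TAGLN were taken for each gate apart, and LEFTY1 was among them in both gates. The other named genes were not compared between the gates. In the embryonic gate CAV1, LEFTY1, SPP1, IER3 and NES had the largest log2 ratio on the weaker of both days. They were ranked among genes at 100 CPM or more in the TAGLN-rich cells on both days. This limit was not asked of the other cells, so it favours genes that are high with TAGLN, and their ratios are a description. CAV1, the coat protein of caveolae, was at 149 against 16.7 CPM at D4 and 105 against 7.11 at D6. LEFTY1, an inhibitor of NODAL, was at 339 against 64.1 and 132 against 6.55 CPM. By the same rule the hypoblast gate gave NPPB, MYL7, CER1, LEFTY1 and VIM. NPPB, the precursor of a natriuretic peptide that stretch induces in heart muscle, was at 715 against 22.9 CPM at D4 and 1556 against 50.1 at D6. MYL7, the atrial regulatory light chain, was at 436 against 94.1 and 453 against 98.6 CPM.

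Targets of YAP and TEAD that are not members moved with TAGLN in the embryonic gate, where 8 of 17 compared were higher at D4 and 8 of 13 at D6, with 0 lower on either day. Of all genes, 3.88% were higher at D4 and 5.64% at D6. The TAGLN-rich embryonic cells of D6 also had more hypoblast markers and doublets, given below, and their part was not tested. Higher on both days were PTPN14, GADD45A, FJX1, AXL, CRIM1 and AJUBA. PTPN14, GADD45A and FJX1 were also higher in the hypoblast gate than in the embryonic gate on both days. AXL was at 23.2 against 12.9 CPM at D4 and 28.5 against 10.9 at D6. In the hypoblast gate 0 of 17 were higher and 3 lower at D4, and 1 of 16 was higher and 0 lower at D6. Of all genes there, 3.35% were higher and 6.33% lower at D4, and 2.07% and 5.87% at D6. Of 17 Hippo genes, 2 were higher and 1 lower in embryonic cells at D4, and 1 was higher and 1 lower at D6. Of 21 adhesion genes compared, 3 were higher and 0 lower at D4, and 8 higher and 1 lower at D6. WWTR1, at 19.8 against 12.6 CPM at D4, PXN, ITGAV and FHL3 were higher there on both days. In hypoblast cells 0 of 17 Hippo genes were higher on either day. The SRF cofactors gave 1 of 6 higher at D4 and 0 of 5 at D6, and the adhesion genes 2 of 21 and 1 of 21. In these hypoblast lists 0 genes were higher on both days. The share of all genes called on both days was not counted.

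Markers of other cell types were read in the same classes, as the number higher by 1.5-fold or more of those that met the floor in embryonic cells of D4 and D6 and hypoblast cells of D4 and D6, in that order. The shares of all genes that were higher were 3.88%, 5.64%, 3.35% and 2.07% in the same order. Of 6 smooth muscle markers these were 0 of 3, 0 of 1, 1 of 3 and 0 of 2. Their sum was 8.91 against 13.3 CPM in embryonic and 17.6 against 10.6 in hypoblast cells of D4, and MYH11, the smooth muscle heavy chain, was under 1 CPM in each class. Of 4 cardiac markers the numbers were 3 of 3, 1 of 1, 2 of 2 and 2 of 2, with ACTC1, the cardiac actin, at 54.8 against 13.8 and 117 against 13.6 CPM in embryonic and 56.5 against 7.42 and 54.5 against 10.1 in hypoblast cells. TNNT2, the cardiac troponin, was at 3.75 CPM or less in each class. Of 5 markers of the anterior visceral endoderm they were 3 of 5, 1 of 3, 3 of 5 and 3 of 5. Their sum was 542 against 109 CPM in embryonic and 1472 against 538 in hypoblast cells of D4, carried by LEFTY1, CER1 and LEFTY2, while HHEX was at 3.52 against 6.9 and 59.8 against 73.3.

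Of 5 amnion markers the numbers were 0 of 1, 0 of 1, 0 of 1 and 0 of 1. The embryonic gate took only cells with POU5F1 and SOX2, so any amnion-like cells without these genes were not among its cells. TFAP2A was at 2.23 against 8.69 CPM in embryonic cells of D4 and 7.12 against 20.4 at D6, and TFAP2B was at 0 in every class. Of 7 mesenchyme markers they were 1 of 3, 2 of 2, 0 of 5 and 0 of 2, with COL1A1 at 69.4 against 29.8 and 121 against 34.9 CPM in embryonic cells, where LUM and DCN were at 0 in the TAGLN-rich. In hypoblast cells of D4 all 5 mesenchyme markers compared were lower, with a sum of 19.8 against 51.5 CPM. Of 5 primitive streak and mesoderm markers they were 1 of 2, 0 of 0, 1 of 5 and 1 of 5, and of 4 endothelium markers 0 of 2, 0 of 1, 0 of 2 and 1 of 2. The part of these cell types in the difference between the classes was not tested.

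Signals of 2 further kinds moved with TAGLN. In the embryonic cells of D6, APOA1 was at 352 against 82.6 CPM, and 1 of the 115 cells held 249 of its 692 UMIs. The 6 hypoblast markers together were at 469 against 109 CPM there and at 63.3 against 40.8 at D4. Scrublet called 10 of these 115 cells doublets, 8.70%, against 1.28% of the other embryonic cells. In embryonic cells with at most 1 UMI of APOA1 and APOA2 together, 14 of 32 members compared were higher at D4 and 16 of 29 at D6, where 3.71% and 5.44% of all genes were. This left 435 and 66 TAGLN-rich cells. Genes that respond to dissociation summed to 895 against 656 CPM in embryonic cells at D4, 885 against 741 at D6, and 1196 against 891 and 1368 against 1105 in hypoblast cells. In the same order, 7 of 14 compared, 5 of 12, 5 of 13 and 5 of 13 were higher by 1.5-fold or more. Of all genes, 3.88%, 5.64%, 3.35% and 2.07% were higher. In embryonic cells of D6, 2 of the 12 were lower, where 6.18% of all genes were, and 0 were lower in the other groups. JUN, KLF6, IER3 and ATF3 were higher in the embryonic cells on both days, and KLF6, DUSP1 and ATF3 in the hypoblast cells. Among cells at or under the median share of these genes, with 163, 57, 279 and 181 TAGLN-rich cells in the same order, 10 of 32 members compared and 12 of 29 were higher in the embryonic gate, where 3% and 5.16% of all genes were. The hypoblast gate gave 9 of 32 and 12 of 32, where 3.15% and 2.58% of all genes were. The part of either signal in the remaining difference was not tested.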

How the data were processed

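Single-cell RNA sequencing of hEEs at D4 and D6 was analysed, with 1 library per day, and 7 bisulfite libraries of the series were not analysed here. The deposited files hold whole UMI counts per gene and cell, which the authors made with Cell Ranger 6.0.1 per the file headers, and the labels name the build hg38. Cells with 3430 to 27500 UMIs and at most 10% mitochondrial UMIs were kept, 83.6% of 10943 cells at D4 and 87.9% of 11483 at D6. Counts were summed over the cells of each gate or class and divided by their total UMIs (CPM). Intervals of levels are exact Poisson, of shares exact Clopper-Pearson, and of log2 ratios exact binomial conditional on the sum of both counts. They cover counting error only, at 95%. With 1 library per day no test or p-value was made.

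A gene was compared where at least 10 UMIs were expected in the smaller group, and called higher or lower at 1.5-fold (0.585 on the log2 scale). The 35 genes and the gene lists were chosen with earlier results of these data known. All members are described, and 1 further gene list is not reported here. Other genes are named if past 1.5-fold on both days in 1 direction and among the 5 highest of their list. Also named are the 5 of each gate with the largest TAGLN ratio, among genes at 100 CPM or more in the TAGLN-rich cells. WWTR1, AXL, and single markers given to check cell types or levels were named outside this rule, after their values were seen. Scrublet in scanpy 1.11.5 called 2.92% and 4.01% of kept cells doublets, which were left out in 1 alternative only. Other alternatives changed the cell filter, the gates, the scaling total, the floor, the weight of cells and the TAGLN classes. Promoter windows came from RefSeq and motifs were searched on both strands. Python 3.11.15, numpy 2.4.6, scipy 1.17.1 and pandas 2.3.3 were used. The ratios, calls and intervals were tested on simulated Poisson counts. The gates, TAGLN classes, doublet calls and motif search were not tested in this way.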

Additional observations from a re-analysis of the deposited data

Results flagged for a closer look

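ACTG2, the enteric smooth muscle actin, was called in opposite directions in the 2 gates at D4. Its log2 ratio between cells with 8 or more UMIs of TAGLN and the other cells was 2.17 in the embryonic gate and -0.71 [-1.55, 0.05] in the hypoblast gate, where the TAGLN-rich cells held 17 UMIs of it and the interval spans 0. At D6, under the floor, it was higher in the TAGLN-rich cells of both gates, at 5.59 against 0.453 CPM in embryonic and 2.79 against 0.227 in hypoblast cells. The difference between the gates was not tested, since each day is 1 library.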

How the results depend on the processing

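The summed members kept their direction in all 66 values under the 11 alternatives run, and 117 of 132 counts of members stayed within 1.5 times of the count reported. The cause of the other 15 was not tested. In cells without a UMI of TAGLN, chosen after seeing the data, 2 members were lower in the hypoblast gate at D4 in place of 4, 3 were lower at D6 in the embryonic gate in place of 8 (TAGLN, ACTA2 and ACTG2, among the 8, were not compared there), and 2 were higher at D6 in the hypoblast gate in place of 1. In TAGLN-rich embryonic cells of D6, 1 member was lower in place of 0 without Scrublet doublets, with the mean of cells, with a total without mitochondrial, ribosomal and member genes, with TAGLN by share of UMIs, and in cells with at most 1 UMI of APOA1 and APOA2, and 2 were in cells at or under the median of dissociation genes. The last 2 alternatives were chosen after seeing the data. In TAGLN-rich hypoblast cells of D4, 9 members were higher in place of 14 at or under that median. There 1 was lower in place of 2 with all deposited cells and with TAGLN by share of UMIs, and 0 with stricter gates and at or under that median. With no floor, 1 was lower in hypoblast cells of D6 in place of 0. Log2 ratios of summed members left their counting interval in 37 of 66 values, which are narrow.

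No paired analysis was possible because each day is 1 library and no test was made. Without a second library per day, the spread between cultures is unknown. The number of cells limits the TAGLN-rich embryonic cells of D6 most, with 115 cells, where 31 of 34 members met the floor.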
